A study of Homo sapiens with 20 samples.

Results

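SKMEL28 is a human melanoma cell line that still makes pigment-cell transcripts, and the data described here are its RNA response to torkinib, a drug that blocks the catalytic site of the kinase MTOR. The members are the 4 SKMEL28 libraries of the 20 in the series, taken by the cell line and treatment in their labels, with every gene counted in them. Of the 4, 2 are of cells kept in 4 µM torkinib for 72 h and 2 are of cells left untreated, with no vehicle named. Both groups came from the same line in MEM with fetal bovine serum, so that any alteration the line carries is shared by both. The submitters chose doses meant to stop the cell cycle while sparing viability, and their stated interest was DNA repair genes under MTOR inhibition. The other 16 libraries are of A375, a second melanoma line (4 µM, in DMEM), of AU565 and SKBR3, breast cancer lines (4 µM and 0.8 µM, in RPMI), and of 94T778, a liposarcoma line (10 µM, in RPMI), each with 2 torkinib and 2 untreated libraries.

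MTOR works in 2 protein complexes. Complex 1 reads amino acids and growth factor signals and, when active, promotes protein, lipid and nucleotide synthesis and holds back autophagy, while complex 2 phosphorylates AKT and related kinases. Torkinib competes with ATP and so acts on both complexes, unlike rapamycin, which acts mainly on the first. In pigment cells the factor MITF drives the melanin genes, and melanoma cells that lose it tend to carry a matrix-rich, invasive profile.

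Counted reads were 9690786 and 7751066 in the torkinib libraries, against 5201967 and 8756448 in the untreated libraries. Reads that did not align took 23.1% and 30.8% of all reads with torkinib, against 17.4% and 18.1% untreated, and these shares moved with the treatment. Replicates differed by more than sampling noise, with a chi-square per gene of 1.79 in the torkinib pair and 2.62 in the untreated pair. The spread behind the p-values was estimated over all 10 groups of the series, where this value ran from 1.37 in AU565 torkinib to 12.2 in SKBR3 untreated. The labels do not state whether replicates were grown separately, so the p-values rest on the spread between libraries and that spread may be technical. Levels are normalised CPM, read counts divided by scaled library totals, and changes are log2 fold changes of torkinib over untreated with their standard error. In cells taken as a whole, fewer cells in a state and less RNA per cell cannot be told apart.

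The libraries matched their label. All 12 melanocyte markers had counts, and their summed level was 12330 and 12130 CPM, here before scaling, with torkinib, against 9224 and 8824 untreated, while untreated libraries of other lines summed to values between 11.0 and 860. Of these 12 markers 8 rose and 4 fell. PMEL made up the largest single part of each SKMEL28 sum and of its rise with torkinib, and DESeq2 did not call PMEL (adjusted p = 0.338). Of 6 blood markers 5 were at 0, and 4 of 5 keratinocyte markers were at 0. Endothelial markers summed to 6.60 and 7.35 CPM with torkinib, against 2.31 and 1.71 untreated, with CDH5 and TEK at 0; KDR and VWF were called higher, and VWF lost its call without the second untreated library (adjusted p = 0.144). Fibroblast markers summed to 10.6 and 11.3 CPM with torkinib, against 41.1 and 41.3 untreated, nearly all of it LUM, with PDGFRB at 0. Breast luminal markers summed to 99.5 and 105 CPM with torkinib, against 111 and 102 untreated, and genes of the 12q region amplified in liposarcoma to 263 and 269, against 349 and 348.

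Torkinib changed a large share of the transcriptome. Of 16698 genes tested, 7355 (44.0%) passed edgeR's quasi-likelihood test at an adjusted p of 0.05, of which 3402 (20.4%) were higher and 3953 (23.7%) lower with torkinib. At least 2-fold higher were 1095 genes (6.56%) and at least 2-fold lower 1159 (6.94%). At least 4-fold higher were 219 (1.31%) and at least 4-fold lower 396 (2.37%). The libraries of the 2 groups did not overlap for 11556 genes (69.2%), called or not. The median absolute log2 change over all genes tested was 0.42.

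**Figure D1:**
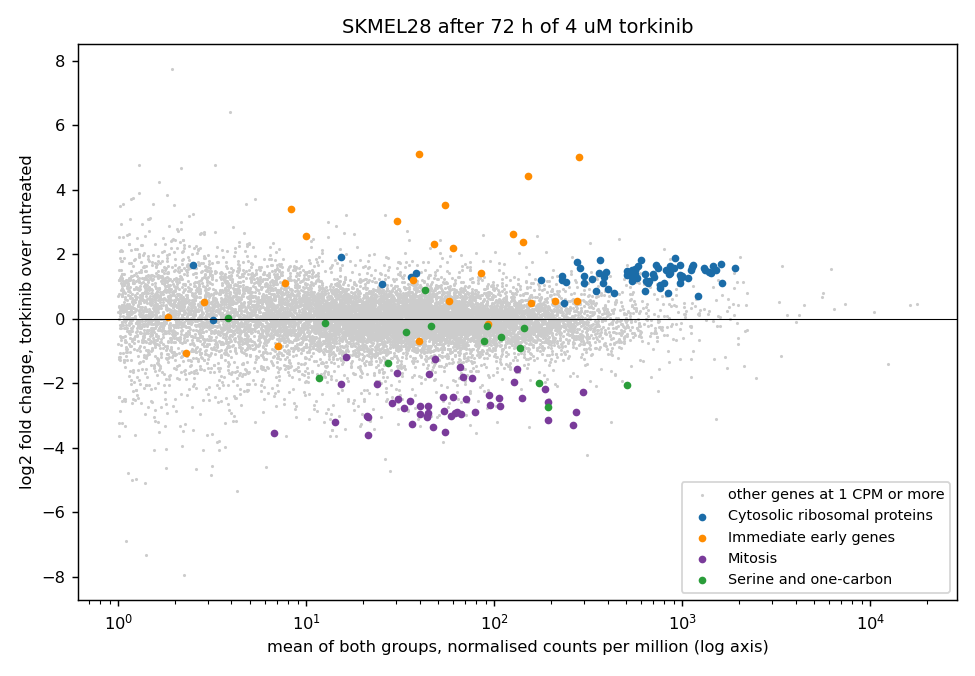
Log2 fold change (torkinib over untreated) against the mean level of both groups in normalised CPM on a log axis, for the 13237 genes at 1 CPM or more in SKMEL28. Ribosomal protein genes form a band above 0 at high level, mitosis genes lie below 0, and EGR1, FOS and FOSB stand at log2 changes of 4.44 to 5.10.

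The steepest rises among well-counted genes were of FOSB, EGR1 and FOS. FOSB, a partner of JUN proteins in the AP-1 transcription factor, had 72.2 and 82.0 CPM with torkinib, against 1.96 and 2.39 CPM untreated, a log2 change of 5.10 ± 0.30 (adjusted p = 1.33e-16). EGR1, a zinc-finger factor switched on soon after growth factor signals, had 530.1 and 567 CPM with torkinib and 17.0 and 16.6 CPM untreated (5.03 ± 0.12, adjusted p = 3.45e-27). FOS itself stood at 297 and 278 CPM with torkinib and 12.1 and 14.0 CPM untreated (4.44 ± 0.14, adjusted p = 4.81e-24). In all 3 genes both torkinib libraries were more than an order of magnitude above both untreated ones. The other large rises took in NR4A2 (3.53), KLF2 (3.41), the atypical MAP kinase gene MAPK4 (3.22), DNER, a Notch ligand gene (3.21), JUNB (3.03), MXRA8 (3.0), the MAP kinase phosphatase gene DUSP1 (2.89), HES4 (2.66) and IDUA, a lysosomal enzyme (2.65). C19orf20 (3.70), OR2C3 (3.56) and the noncoding RNA NCRNA00219 (2.71) completed the 15 largest.

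The steepest falls included those of LOXL2, RRM2 and FLT1. LOXL2, an enzyme that cross-links collagen, had 2.07 and 2.03 CPM with torkinib, against 48.5 and 58.9 CPM untreated (log2 change -4.71 ± 0.16, adjusted p = 3.17e-23). RRM2, the regulated subunit of the enzyme that makes deoxynucleotides, had 33.4 and 30.2 CPM with torkinib, against 584 and 604 CPM untreated (-4.22 ± 0.11, adjusted p = 8.71e-27). FLT1, a receptor for vascular endothelial growth factor, had 3 counts in both torkinib libraries together, against 109 in the untreated ones, a ratio of untreated over torkinib of 45.4 (95% exact counting interval 15.1 to 224, for counting error only). The torkinib libraries lay far below the untreated ones in all 3 genes. Other large falls were of SERPINA3 (-4.61) and the metalloprotease gene ADAM19 (-4.34), both steeper than that of RRM2. Smaller than these were the falls of DDIT4 (-3.81), E2F8 (-3.64), ESCO2 (-3.62), the kinetochore genes SPC25 (-3.60) and SPC24 (-3.54), IGFBP3 (-3.53), BIRC5 (-3.51), AIM1 (-3.44) and RP11-317M11.1 (-3.43).

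**Figure D2:**
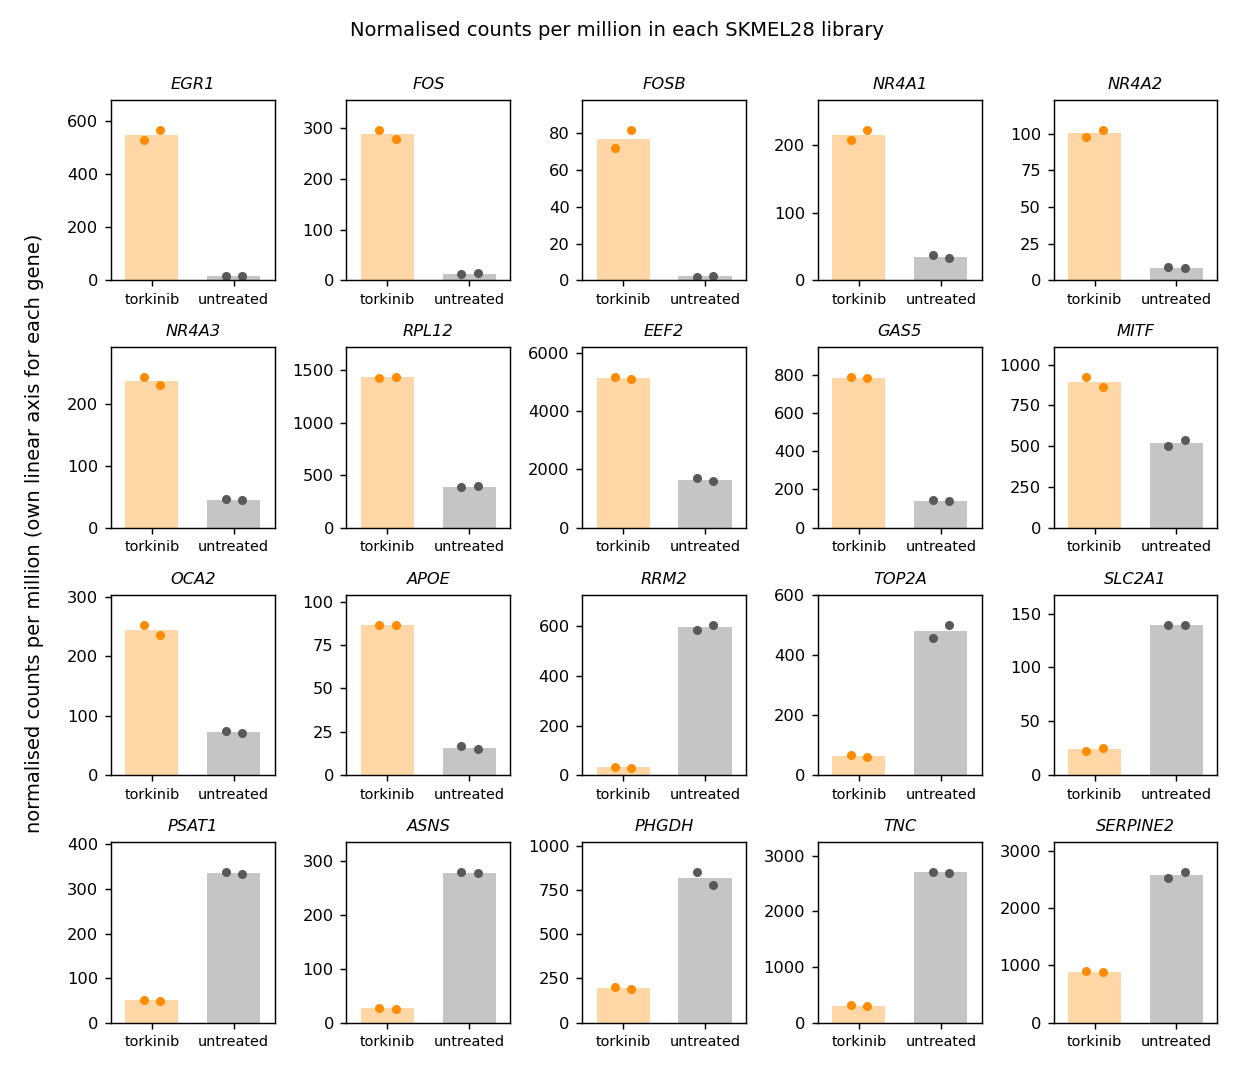
Normalised CPM of 20 genes in each SKMEL28 library, torkinib at the left and untreated at the right of each panel; bars are means of 2 libraries drawn from 0, points are the libraries, and each panel has its own linear axis. In every panel the groups do not overlap.

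The immediate early genes, which respond first to growth factors and stress, were higher as a group after 72 h of drug. Of 24 tested, 18 rose and 3 fell, beside 20.4% and 23.7% of all genes, and their median log2 change was 1.31. The 3 NR4A orphan nuclear receptors rose together. NR4A1 had 208 and 222 CPM with torkinib, against 36.8 and 33.3 CPM untreated (2.63 ± 0.15). NR4A2 was at 97.7 and 103 CPM with torkinib and 8.80 and 8.60 CPM untreated (3.53 ± 0.16). NR4A3 reached 243 and 231 CPM with torkinib, against 46.3 and 44.4 CPM untreated (2.39 ± 0.09). For none of the 3 receptors did the groups overlap.

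Output genes of the RAS-MAPK pathway were called in both directions. Of 24 output and feedback genes tested 9 rose and 7 fell, beside 20.4% and 23.7% of all genes, with a median of 0.16. SPRY1, a feedback inhibitor of receptor tyrosine kinase signalling, rose to 159.9 and 168 CPM with torkinib, against 37.3 and 40.0 CPM untreated (2.08 ± 0.10). FOSL1, another AP-1 member, fell to 59.6 and 60.0 CPM with torkinib, against 153 and 162 CPM untreated (-1.40 ± 0.08), on the other side of 0 from FOS, FOSB and JUNB.

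The EGR1 promoter is shown because the gene had the smallest adjusted p among the 15 largest rises and because its upstream sequence holds CArG boxes, the sites bound by serum response factor. The 250 bases before its start in RefSeq (GRCh38.p14) lie at chr5:138465229-138465478 (plus strand), and capitals mark the 2 CArG boxes, which begin 105 and 83 bases before the start.
EGR1: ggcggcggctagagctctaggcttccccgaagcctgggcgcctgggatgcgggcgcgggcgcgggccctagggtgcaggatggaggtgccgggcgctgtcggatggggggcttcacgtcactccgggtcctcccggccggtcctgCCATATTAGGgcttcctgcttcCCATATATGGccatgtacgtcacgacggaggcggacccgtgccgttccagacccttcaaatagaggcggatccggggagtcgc
A CArG box was searched on both strands of the 250 bases before each start and of a short stretch after it. It was found in 1 of the 19 immediate early promoters with a sequence (5.26%), that of EGR1, and in 191 of 15843 protein-coding promoters (1.21%).

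Genes of the translation machinery rose in near unison. Of 76 cytosolic ribosomal protein genes 75 rose and 0 fell, beside 20.4% and 23.7% of all genes, and 67 rose at least 2-fold, beside 6.56%. Their median log2 change was 1.36, and it lay between 1.33 and 1.39 under all alternative settings run. RPL12, of the large subunit, had 1432 and 1434 CPM with torkinib, against 384 and 399.6 CPM untreated (1.87 ± 0.08, adjusted p = 2.96e-21). RPL3, also of the large subunit, had 2447 and 2428 CPM with torkinib and 754 and 761 CPM untreated (1.69 ± 0.07). RPL13 (1.83) and RPL36 (1.82) changed by similar amounts, and in none of these genes did the groups overlap.

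The gene not called was RPS26, at 3.17 and 3.12 CPM with torkinib and 3.52 and 2.99 CPM untreated (-0.02 ± 0.29), named after its value was seen. Many ribosomal protein genes have near-identical pseudogene copies, and a read with more than 1 alignment was not counted for any gene. Such reads took 12.6% and 11.5% of all reads with torkinib, against 9.49% and 9.61% untreated, and their part in the result was not tested.

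Most called translation factors rose. Of 44 tested 23 rose and 9 fell, beside 20.4% and 23.7% of all genes, with a median of 0.25. EEF2, which moves the ribosome along the message, had 5156 and 5093 CPM with torkinib and 1689 and 1587 CPM untreated (1.65 ± 0.08, adjusted p = 9.40e-20). EEF1A1, which brings aminoacyl-tRNA to the ribosome, had 9397 and 9053 CPM with torkinib and 3193 and 3094 CPM untreated (1.55 ± 0.08). The elongation factor subunit EEF1B2 (1.41) and the initiation factor subunit EIF3E (1.34) also rose. Of 46 ribosome biogenesis genes 15 rose and 7 fell, with a median of 0.07. In that list POLR1E, a subunit of RNA polymerase I, rose by 1.23, TAF1D by 1.06 and MYC by 0.89, while POLR3G, of RNA polymerase III, fell by 1.50 on the log2 scale.

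Messages of ribosomal proteins and elongation factors are known to begin with a C followed by a run of pyrimidines, the 5′ terminal oligopyrimidine (TOP) tract, through which MTOR complex 1 controls their translation. The starts of 5 of the genes above are shown for that tract, each as a stretch of 25 bases across the RefSeq start (GRCh38.p14), with the tract in capitals: RPL12 chr9:127451392-127451416 (minus strand), RPL36 chr19:5690285-5690309 (plus strand), RPL3 chr22:39319609-39319633 (minus strand), EEF2 chr19:3985449-3985473 (minus strand) and EEF1A1 chr6:73521018-73521042 (minus strand).
RPL12: cgatttccggCCTCTCggctttcgg
RPL36: cggcgccagcCCTTCCgccacggcc
RPL3: gccgaccggCCTCTaccggcgggat
EEF2: cgtcagcgttCTCTTCCgccgtcgt
EEF1A1: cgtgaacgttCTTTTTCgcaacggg
A C within 5 bases of the annotated start, followed by at least 4 pyrimidines, was found in 49 of 62 ribosomal protein promoters with a sequence (79.0%), in 15 of 37 translation factor promoters (40.5%), and in 3502 of 15843 protein-coding promoters (22.1%). In the mitosis list it was found in 4 of 43 (9.30%).

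Noncoding host genes of small nucleolar RNAs, some of them also TOP messages, rose with the ribosomal genes. All 9 nuclear or snoRNA-host long noncoding RNAs tested were higher, beside 20.4% of all genes, with a median of 1.30. GAS5 had 786 and 782 CPM with torkinib, against 144 and 138 CPM untreated (2.47 ± 0.08, adjusted p = 1.21e-23). NCRNA00275, now named ZFAS1, had 408 and 415 CPM with torkinib and 106 and 109.8 CPM untreated (1.93 ± 0.08). NCRNA00219, now EPB41L4A-AS1, had 59.8 and 60.0 CPM with torkinib and 9.19 and 9.08 CPM untreated, and SNHG8 rose by 1.60. The strand setting of the counting is not given in the sources used here, so reads of an antisense RNA and of its partner cannot be told apart.

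Of 29 genes of the MTOR pathway itself 7 were higher and 9 lower, with a median of -0.12, shares near the 20.4% and 23.7% of all genes. MTOR, the kinase, had 244 and 224 CPM with torkinib, against 290.3 and 299.9 CPM untreated (-0.33 ± 0.07, adjusted p = 3.01e-04). Of the subunits shared by both complexes or defining complex 2, MLST8 (0.57) and RICTOR (0.45) rose and MAPKAP1 (-0.47) fell. RPTOR, which defines complex 1, changed by -0.24 and was not called (adjusted p = 0.056), and it passed without the second untreated library (-0.37, adjusted p = 0.0208), with RLE size factors (adjusted p = 0.0498), with no scaling factors (adjusted p = 0.0346) and in a fit of the 4 SKMEL28 libraries alone (adjusted p = 0.0212). DEPTOR, an inhibitory subunit, rose to 4.04 and 5.69 CPM with torkinib, against 1.37 and 2.03 CPM untreated (1.42 ± 0.32). The complex 1 substrate inhibitor AKT1S1 (0.11) and the complex 2 subunits PRR5 (-0.35) and PRR5L (-0.24) were not called.

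DDIT4 and the sestrins, stress brakes on complex 1, fell. DDIT4, also called REDD1, had 7.10 and 7.04 CPM with torkinib, against 104 and 95 CPM untreated (-3.81 ± 0.13, adjusted p = 1.60e-23). The sestrins signal low leucine and stress, and SESN3 fell by 1.81, SESN2 by 1.71 and SESN1 by 0.66, the last of which lost its call without the first torkinib library (adjusted p = 0.052) or the second untreated one (adjusted p = 0.0512). EIF4EBP1, a translation repressor that MTOR phosphorylates, fell to 28.0 and 28.0 CPM with torkinib, against 81.1 and 78.5 CPM untreated (-1.51 ± 0.11), and its relative EIF4EBP2 was not called (0.12). Among the upstream switches TSC2 rose by 0.64 and RHEB fell by 0.57, while TSC1 (-0.21) and TBC1D7 (-0.02) were not called. ULK1, the autophagy kinase that complex 1 restrains, rose by 0.84.

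The lysosomal part of the amino acid sensor moved little. RRAGB rose by 0.74 and RRAGC by 0.29, and RRAGC lost its call without the first torkinib library (adjusted p = 0.131) or the first untreated one (adjusted p = 0.156). FNIP2 fell by 0.31, and lost its call without the second torkinib library (adjusted p = 0.0748) or the first untreated one (adjusted p = 0.0509). RRAGA (-0.14), RRAGD (0.09), FNIP1 (-0.12), and the S6 kinases RPS6KB1 (-0.07) and RPS6KB2 (0.03) were not called. FLCN changed by 0.29 (adjusted p = 0.0625), and passed without the first torkinib library (0.41, adjusted p = 0.034) or the second untreated one (0.46, adjusted p = 0.0355), with the replicate block (0.32, adjusted p = 0.0215) and in the fit of the 4 SKMEL28 libraries alone (0.31, adjusted p = 0.0115).

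Of 20 insulin and PI3K genes 6 were higher and 7 lower, beside 20.4% and 23.7% of all genes, a difference of few genes, with a median of 0. IRS2, an insulin receptor adaptor that FOXO factors induce, rose to 188 and 174 CPM with torkinib, against 70.8 and 76.5 CPM untreated (1.29 ± 0.09). PIK3R3, a regulatory subunit of PI3 kinase, fell to 83.7 and 84.3 CPM with torkinib, against 334 and 343 CPM untreated (-2.01 ± 0.09). PDK1, which in this symbol is pyruvate dehydrogenase kinase, fell by 1.76, and the receptor ERBB3 by 0.83. Of 23 FOXO genes and FOXO targets 6 rose and 3 fell, rises near the share of all genes, with a median of 0.15. PNRC1 was among the risers (1.12), and the fit of the 4 SKMEL28 libraries alone called 10 of 20 list members higher.

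The mitotic program was lower without exception. All 49 mitosis genes fell, beside 23.7% of all genes, and all 49 fell at least 2-fold, beside 6.94%, with a median log2 change of -2.70 and a range of -3.60 to -1.18. TOP2A, which untangles DNA before division, had 67.9 and 61.1 CPM with torkinib, against 457 and 501 CPM untreated (-2.89 ± 0.10, adjusted p = 1.18e-23). ANLN, a scaffold of the cleavage furrow, had 42.4 and 36.0 CPM with torkinib and 335 and 354 CPM untreated (-3.13 ± 0.10). KIF20A (-3.37) and PRC1 (-2.58), a motor and a bundler of the central spindle, were next by p. The groups were far apart in each of these genes.

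Many mitotic genes carry a CHR element, TTTGAA, the site through which the DREAM and MYB-MuvB complexes hold them down in resting cells and switch them on late in the cycle. Upstream sequences of 6 genes that fell are shown for it, all from RefSeq (GRCh38.p14) and ending at the base before the start: PLK1 chr16:23678639-23678888 (plus strand), CDC20 chr1:43358731-43358980 (plus strand), TOP2A chr17:40417897-40418146 (minus strand), ANLN chr7:36389612-36389861 (plus strand), KIF23 chr15:69414099-69414348 (plus strand) and PRC1 chr15:90994536-90994785 (minus strand). Capitals mark each TTTGAA or, on the other strand, TTCAAA.
PLK1: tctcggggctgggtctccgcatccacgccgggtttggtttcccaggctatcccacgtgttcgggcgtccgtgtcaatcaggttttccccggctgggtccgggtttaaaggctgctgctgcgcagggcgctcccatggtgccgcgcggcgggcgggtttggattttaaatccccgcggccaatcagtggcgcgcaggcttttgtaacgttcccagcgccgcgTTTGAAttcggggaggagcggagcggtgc
CDC20: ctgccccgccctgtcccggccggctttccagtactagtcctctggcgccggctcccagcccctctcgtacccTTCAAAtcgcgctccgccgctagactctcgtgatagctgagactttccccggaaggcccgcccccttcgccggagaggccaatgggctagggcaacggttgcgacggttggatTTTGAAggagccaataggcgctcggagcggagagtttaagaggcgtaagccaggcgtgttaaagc
TOP2A: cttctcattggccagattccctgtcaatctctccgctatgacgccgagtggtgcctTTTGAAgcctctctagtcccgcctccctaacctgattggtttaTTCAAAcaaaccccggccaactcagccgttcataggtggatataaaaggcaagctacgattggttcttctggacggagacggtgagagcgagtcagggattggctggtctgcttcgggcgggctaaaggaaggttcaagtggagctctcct
ANLN: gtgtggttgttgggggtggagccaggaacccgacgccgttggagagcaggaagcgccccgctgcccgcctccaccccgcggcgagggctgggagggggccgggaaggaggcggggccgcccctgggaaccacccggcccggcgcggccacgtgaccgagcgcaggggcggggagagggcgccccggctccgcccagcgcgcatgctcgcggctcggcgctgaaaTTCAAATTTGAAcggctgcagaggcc
KIF23: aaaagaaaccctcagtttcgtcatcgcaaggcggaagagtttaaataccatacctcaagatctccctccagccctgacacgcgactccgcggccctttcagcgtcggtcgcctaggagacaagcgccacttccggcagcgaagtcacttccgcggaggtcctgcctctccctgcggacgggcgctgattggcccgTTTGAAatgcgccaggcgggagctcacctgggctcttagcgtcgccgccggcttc
PRC1: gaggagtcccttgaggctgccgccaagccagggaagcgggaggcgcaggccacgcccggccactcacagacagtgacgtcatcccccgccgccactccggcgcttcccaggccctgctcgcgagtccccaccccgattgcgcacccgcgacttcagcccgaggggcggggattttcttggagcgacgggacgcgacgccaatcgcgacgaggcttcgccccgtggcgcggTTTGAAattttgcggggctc
In ANLN the pair lies back to back, 26 and 20 bases before the start, and in PRC1 the element begins 20 bases before it. The motif on either strand was found in 30 of 43 mitosis promoters with a sequence (69.8%), against 1923 of 15843 protein-coding promoters (12.1%) and 2 of 32 in the DNA replication list (6.25%). PLK1, the mitotic kinase, had 11.7 and 11.8 CPM with torkinib, against 74.7 and 78.6 CPM untreated (-2.71 ± 0.11). CDC20, which activates the anaphase-promoting complex, had 21.3 and 21.3 CPM with torkinib and 125 and 116 CPM untreated (-2.50 ± 0.10). KIF23, a central spindle motor, fell by 2.67, and these last 3 were chosen for their promoters after their values were seen.

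Most DNA replication genes fell, and the counts below stand beside 23.7% of all genes lower and 20.4% higher. Of 36 tested, 30 fell and 2 rose, with a median of -0.76, and the 2 rises became 1 without the second torkinib library or the second untreated one. PCNA, the sliding clamp, had 159 and 137 CPM with torkinib and 341 and 347 CPM untreated (-1.21 ± 0.09). MCM10 (-2.56), CDC6 (-1.91) and CDC45 (-1.69), which load or start the replicative helicase, fell further. CDT1, which loads the helicase with CDC6, went the other way, at 27.2 and 23.4 CPM with torkinib and 16.4 and 14.2 CPM untreated (0.75 ± 0.14, adjusted p = 2.62e-05). Of 14 genes for deoxynucleotide supply 9 fell and 0 rose, with a median of -0.92. TYMS, which makes thymidylate, fell to 23.9 and 23.2 CPM with torkinib, against 164 and 154 CPM untreated (-2.75 ± 0.10), TK1 fell by 2.82 and RRM1 by 1.35. Of 26 regulators of G1, 10 fell and 5 rose, 3 without the second untreated library, with a median of -0.10; E2F2 (-2.96), CDKN2C (-2.62), which is an inhibitor of CDK4, and cyclin D3 (CCND3, -1.52) fell. Checkpoint genes fell in 11 of 20 cases and rose in 2, with a median of -0.33, led by CLSPN (-2.26), CDC25C (-2.32), TIMELESS (-1.26) and CDC25B (-0.88).

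DNA repair genes were the submitters' interest, and most called genes of recombination and crosslink repair fell. Of 46 homologous recombination genes 27 fell and 8 rose, beside 23.7% and 20.4% of all genes, with a median of -0.61. The count of rises was 3 without the first torkinib library, 5 without the second and 4 without the first untreated library, and 3 by DESeq2. RAD54L, a DNA translocase of strand exchange, had 13.1 and 12.5 CPM with torkinib, against 49.3 and 49.3 CPM untreated (-1.94 ± 0.13). RAD51AP1 (-1.85) and the nuclease EXO1 (-1.75) also fell. Of 23 Fanconi anemia genes, which repair crosslinks between strands, 13 fell and 5 rose, 3 without the second untreated library, with a median of -0.55. FANCI had 177 and 163 CPM with torkinib, against 445 and 452 CPM untreated (-1.40 ± 0.08), and UBE2T (-2.43), FANCB (-1.80) and FANCD2 (-1.14) fell with it.

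Replicative polymerase genes fell almost without exception, and error-prone ones were split, beside 23.7% of all genes lower and 20.4% higher. Of 12 subunits of polymerases alpha, delta and epsilon with primase, 11 fell and 0 rose, with a median of -0.73. The falls were of POLE2 (-1.44), PRIM1 (-1.16), PRIM2 (-1.08), POLA2 (-1.0), POLA1 (-0.77), POLD3 (-0.74), POLE (-0.73), POLE3 (-0.64), POLE4 (-0.42), POLD1 (-0.40) and POLD2 (-0.22), and POLD4 was not called (-0.07). POLD2 lost its call in each case without the first (adjusted p = 0.19) or second torkinib library (adjusted p = 0.115) or the first untreated one (adjusted p = 0.332), with no filter on low counts (adjusted p = 0.109), by limma-voom (adjusted p = 0.0547) and by DESeq2 (adjusted p = 0.0589), and POLD1 without the first untreated library (adjusted p = 0.0573). Of 12 error-prone or repair polymerase genes 4 fell and 4 rose, 2 without the second untreated library, with a median of -0.09. POLQ, of microhomology-mediated joining, had 23.2 and 18.2 CPM with torkinib and 87.2 and 94.5 CPM untreated (-2.13 ± 0.12), and POLH (-1.04), REV3L (-0.46) and MAD2L2 (-0.45) also fell. POLN (1.33), POLL (0.64), POLM (0.51) and POLI (0.40) rose. POLM lost its call without the first torkinib library (adjusted p = 0.105) or the second untreated one (adjusted p = 0.2), and POLI without the second torkinib library (adjusted p = 0.0526) or the second untreated one (adjusted p = 0.181), or by DESeq2 (adjusted p = 0.0626). POLB (-0.05), POLK (0.01), REV1 (-0.13) and CCDC111, now named PRIMPOL (-0.24), were not called.

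The remaining repair pathways had called genes in both directions, to be read beside 20.4% of all genes higher and 23.7% lower. Base excision repair had 10 falls and 6 rises among 22 genes, with a median of -0.01; the falls were 6 without the second torkinib library and the rises 3 without the second untreated one. FEN1, also a flap nuclease of replication, fell by 1.27, NEIL3 by 3.03 and PARP2 by 1.48, whereas APEX1 rose to 141 and 145 CPM with torkinib, against 89.2 and 85.1 CPM untreated (0.72 ± 0.08). In mismatch repair 1 of 8 genes rose, MSH3 (0.47), and 1 fell, 2 without the first torkinib library or with no scaling factors and 3 in the fit of the 4 SKMEL28 libraries alone, with a median of -0.05. Nucleotide excision repair had 5 rises and 5 falls among 24 genes, about the share of all genes, with a median of -0.05, 3 rises without the first torkinib library and 3 falls without the second torkinib or the second untreated one. There DDB2, a p53-dependent damage sensor, fell by 1.08, GTF2H5 by 0.89 and CCNH by 0.49, and KIAA1530, now named UVSSA, rose by 0.77. End joining had 5 falls and 2 rises among 13 genes, with a median of -0.04, and the small counts became 3 falls without the second torkinib or the second untreated library and 1 rise without the first torkinib or the second untreated one. XRCC6, the Ku70 gene, fell by 0.29 and XRCC4 by 0.56.

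**Figure D3:**
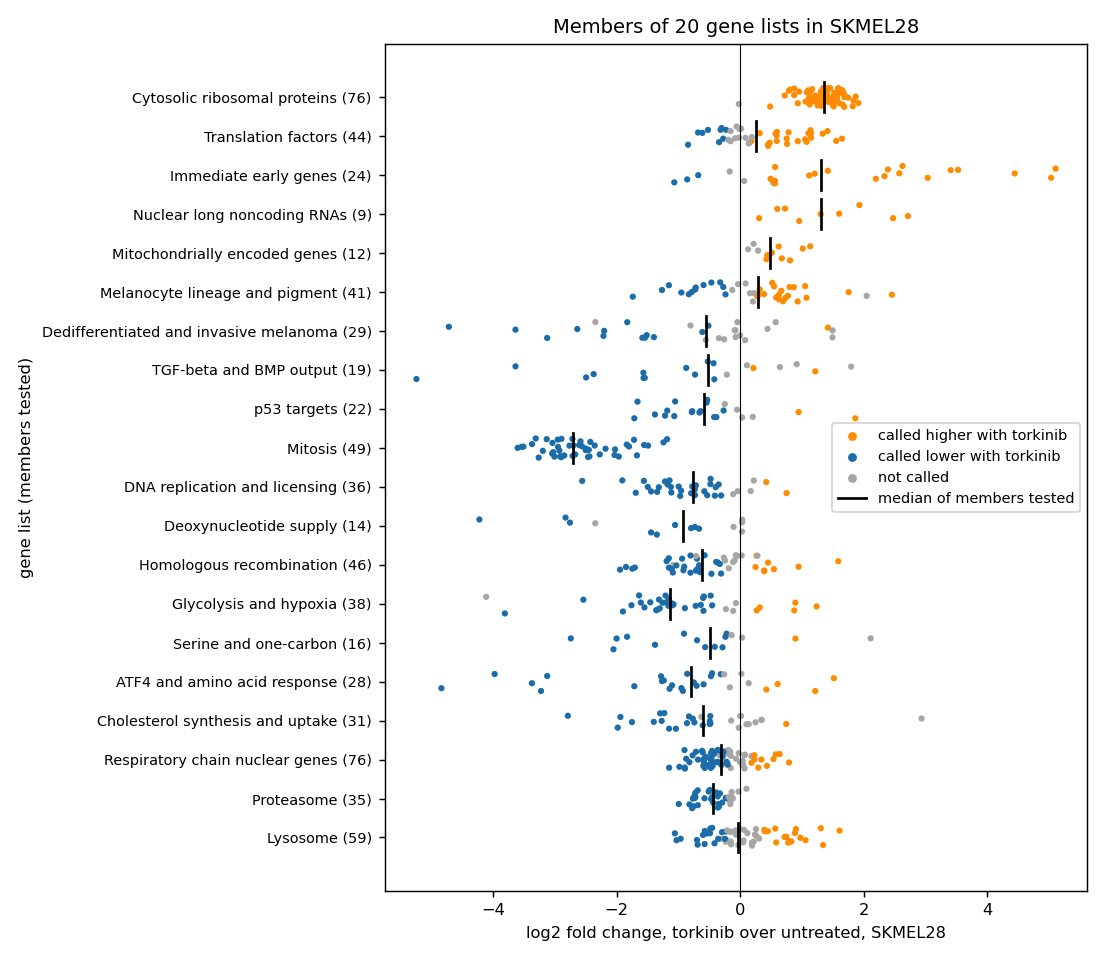
Log2 fold change (torkinib over untreated) of each tested member of 20 gene lists in SKMEL28, with the number tested after each list name; colours give the edgeR call and the black bar the median. Mitosis genes lie at -1.18 or below, and all ribosomal protein genes but 1 lie above 0.

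Targets of p53 were mostly lower, beside 23.7% of all genes lower and 20.4% higher. Of 22 tested 16 fell and 2 rose, with a median of -0.59, and without the second untreated library 10 fell. GADD45A, a stress-induced growth inhibitor, had 29.9 and 25.5 CPM with torkinib and 63.2 and 63.1 CPM untreated (-1.18 ± 0.12). CDKN1A, the p21 inhibitor of CDKs, named after its value was seen, had 5.24 and 6.91 CPM with torkinib and 14.1 and 13.9 CPM untreated (-1.22 ± 0.18), and the nuclease gene AEN fell by 0.78. BBC3, the death gene PUMA, rose to 19.5 and 15.4 CPM with torkinib, against 6.06 and 4.06 CPM untreated (1.86 ± 0.20). Across the BCL2 family 4 genes rose and 6 fell of 15, with a median of -0.04, and 3 fell without the second untreated library. PMAIP1, or NOXA, fell by 2.68 and the melanocyte survival gene BCL2A1 by 0.73, while MCL1 rose by 0.56.

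Most genes of glucose uptake and glycolysis fell, beside 23.7% of all genes lower and 20.4% higher. Of 38 glycolysis and hypoxia genes 28 fell and 5 rose, 2 without the second untreated library, with a median of -1.13. SLC2A1, the main glucose transporter GLUT1, had 22.6 and 25.6 CPM with torkinib, against 139 and 139.5 CPM untreated (-2.54 ± 0.10, adjusted p = 3.99e-22). The glycolytic enzymes PGAM1 (-1.90) and TPI1 (-1.61) fell with it, TPI1 to 213 and 198 CPM with torkinib against 648 and 606 CPM untreated. The pentose phosphate and nucleotide synthesis list was mixed, with 9 of 25 lower and 5 higher, 3 without the second untreated library, and a median of -0.13. IMPDH2, the rate-limiting enzyme of guanine nucleotide synthesis, rose to 477 and 477 CPM with torkinib, against 166 and 183 CPM untreated (1.45 ± 0.07). CTPS (-1.37), PRPS1 (-0.88) and TALDO1 (-0.64) fell.

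Serine synthesis and the amino acid response fell strongly at their leading genes. List counts here stand beside 23.7% of all genes lower and 20.4% higher. Of 16 serine and one-carbon genes 12 fell and 1 rose, with a median of -0.49. PSAT1, the transaminase of serine synthesis, had 50.9 and 49.3 CPM with torkinib, against 337 and 333 CPM untreated (-2.74 ± 0.08, adjusted p = 1.12e-24). PHGDH, its first enzyme, had 204 and 188 CPM with torkinib and 848 and 779.7 CPM untreated (-2.05 ± 0.08). MTHFD2 (-2.0) and SHMT2 (-0.91), of mitochondrial one-carbon metabolism, fell too. Of 28 genes of the amino acid response, its factor ATF4 among them, 20 fell and 4 rose, with a median of -0.80. The count of rises depended on single libraries. ASNS, asparagine synthetase, had 27.6 and 26.0 CPM with torkinib and 278 and 277 CPM untreated (-3.37 ± 0.10), and CBS, of cysteine synthesis, fell by 3.12. PPP1R15A, also called GADD34, went the other way, at 309.7 and 295 CPM with torkinib and 108 and 104 CPM untreated (1.51 ± 0.09). Of 23 cytosolic aminoacyl-tRNA synthetases 13 fell and 2 rose, 1 without the first torkinib library, with a median of -0.36; MARS (-1.65), WARS (-1.44), CARS (-1.42) and GARS (-1.24) led.

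Most called genes of lipid synthesis fell, beside 23.7% of all genes lower and 20.4% higher. Of 31 genes of cholesterol synthesis and uptake 19 fell and 1 rose, with a median of -0.61. ACAT2, which condenses acetyl-CoA at the start of the pathway, had 7.10 and 8.67 CPM with torkinib, against 53.2 and 54.7 CPM untreated (-2.79 ± 0.14). DHCR7, a late enzyme of the pathway, fell by 1.29. Of 27 fatty acid and triglyceride synthesis genes 13 fell and 5 rose, 2 without the second untreated library, with a median of -0.19. In that list ELOVL6 (-1.50), GPAM (-1.04), the desaturase gene SCD (-0.75) and ACLY (-0.52) fell.

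Most called nuclear genes of the respiratory chain fell, and the called mitochondrial ones rose. Of 76 nuclear genes 43 fell and 10 rose, beside 23.7% and 20.4% of all genes, with a median of -0.31, and the rises were 5 without the first torkinib or the second untreated library. ATP5J2 (-1.15), UQCRQ (-0.87), NDUFB3 (-0.90) and ATP5G1 (-0.89) led the falls. Of 12 mitochondrially encoded genes 9 rose and 0 fell, with a median of 0.49. MT-ND1, of complex I, had 2730.0 and 3078 CPM with torkinib, against 1190.3 and 1454 CPM untreated (1.13 ± 0.16, adjusted p = 1.60e-07), and MT-ND3 (1.01), MT-ND2 (0.81) and MT-ND5 (0.67) rose. DESeq2 called 5 of the 12 higher. In edgeR 4 of the 12 passed without the first untreated library, which had the lowest mitochondrial share of the 4 libraries. That share was 7.39% and 8.39% of counted reads with torkinib, against 5.27% and 6.58% untreated.

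The called citric acid cycle genes fell, and the counts below stand beside 23.7% of all genes lower and 20.4% higher. Of 22 citric acid cycle genes 14 fell and 0 rose, with a median of -0.26, and 8 fell without the first torkinib library and 9 without the first untreated one; IDH2 (-1.61), PC (-1.37), ACO1 (-1.07) and MDH1 (-0.74) led. Of 24 fatty acid oxidation genes 8 fell and 7 rose, with a median of -0.04, and 3 rose without the first torkinib library and 4 without the second untreated one. There the electron transfer flavoprotein genes ETFB (-1.04), ETFA (-0.82) and ETFDH (-1.25) fell together with HADH (-0.76). Of 16 control genes of mitochondrial biogenesis 3 rose and 2 fell, with a median of 0.10, and 1 fell without the second torkinib or the first untreated library. ESRRA (0.94) and POLRMT, the mitochondrial RNA polymerase (0.78), rose, PPARGC1B fell by 0.93, and PPRC1 (0.32) lost its call without the second torkinib library (adjusted p = 0.0598) or the second untreated one (adjusted p = 0.0688).

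Called pigment cell genes moved in both directions, more of them upward. Of 41 melanocyte lineage and pigment genes tested 21 rose and 13 fell, beside 20.4% and 23.7% of all genes, with a median of 0.28. MITF had 921 and 862 CPM with torkinib, against 502 and 540.0 CPM untreated (0.77 ± 0.09, adjusted p = 1.92e-09). OCA2, a melanosome transporter, had 252 and 235 CPM with torkinib and 73.7 and 71.2 CPM untreated (1.75 ± 0.09), and APOE, which pigment cells secrete, had 86.4 and 86.6 CPM with torkinib and 16.8 and 15.1 CPM untreated (2.45 ± 0.12). RAB38, which carries cargo to melanosomes, rose by 0.87. S100B, a marker of the lineage, fell to 211 and 196 CPM with torkinib, against 683 and 673 CPM untreated (-1.74 ± 0.08), and S100A1 fell by 1.15. The amino acid transporter gene SLC7A5, also in this list, fell by 1.26.

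The melanin enzyme genes TYR and TYRP1 rose too. TYR, tyrosinase, had 537 and 533 CPM with torkinib and 419.6 and 439 CPM untreated (0.32 ± 0.08, adjusted p = 0.0022), and TYRP1 had 526 and 503 CPM with torkinib and 411 and 434 CPM untreated (0.28 ± 0.07). PMEL, which forms the melanosome fibrils, had 7133 and 7012 CPM with torkinib and 4218 and 3907 CPM untreated (0.80 ± 0.14, adjusted p = 7.95e-06), and DESeq2 did not call it (adjusted p = 0.338). GPR143 rose by 0.52 and TSPAN10 by 0.63, and TSPAN10 lost its call under DESeq2 (adjusted p = 0.0526). All 5 were named after their values were seen, 4 of them for the M-box, TCATGTG, a site that MITF binds. The 250 bases before their RefSeq starts (GRCh38.p14) are TYR chr11:89177625-89177874 (plus strand), TYRP1 chr9:12693135-12693384 (plus strand), GPR143 chrX:9765848-9766097 (minus strand) and TSPAN10 chr17:81642055-81642304 (plus strand), with each TCATGTG or, on the other strand, CACATGA in capitals.
TYR: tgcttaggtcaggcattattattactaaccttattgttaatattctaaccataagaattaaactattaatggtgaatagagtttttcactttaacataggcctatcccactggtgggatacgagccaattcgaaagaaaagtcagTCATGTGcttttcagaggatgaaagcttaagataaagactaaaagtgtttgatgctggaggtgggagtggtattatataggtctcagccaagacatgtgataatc
TYRP1: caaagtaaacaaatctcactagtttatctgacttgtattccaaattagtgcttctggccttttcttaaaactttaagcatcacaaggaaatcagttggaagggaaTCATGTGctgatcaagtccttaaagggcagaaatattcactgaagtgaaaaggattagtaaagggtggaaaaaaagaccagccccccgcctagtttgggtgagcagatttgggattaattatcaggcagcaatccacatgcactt
GPR143: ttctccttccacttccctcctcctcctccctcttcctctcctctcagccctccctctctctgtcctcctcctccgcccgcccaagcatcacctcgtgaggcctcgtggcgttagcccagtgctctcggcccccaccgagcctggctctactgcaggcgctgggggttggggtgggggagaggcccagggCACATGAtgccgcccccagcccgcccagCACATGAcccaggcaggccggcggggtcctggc
TSPAN10: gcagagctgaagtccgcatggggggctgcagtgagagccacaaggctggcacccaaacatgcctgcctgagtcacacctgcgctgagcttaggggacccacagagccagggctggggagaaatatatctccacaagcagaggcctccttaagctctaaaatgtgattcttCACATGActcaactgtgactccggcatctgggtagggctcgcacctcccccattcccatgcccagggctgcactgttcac
The motif was searched on both strands of the 250 bases before each start and of a short stretch after it. It was found in 7 of 33 pigment promoters with a sequence (21.2%), and in 359 of 15843 protein-coding promoters (2.27%). BCL2A1, another of the 7, fell, and the changes of SLC24A5 and GPNMB, also among them, are not given here.

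Most called genes of the dedifferentiated, invasive melanoma profile fell. Of 29 tested 13 fell and 1 rose, beside 23.7% and 20.4% of all genes, with a median of -0.56. TNC, the matrix protein tenascin C, had 318 and 302 CPM with torkinib, against 2702 and 2700 CPM untreated (-3.12 ± 0.09, adjusted p = 1.52e-25). SERPINE2, a secreted protease inhibitor, had 897 and 880 CPM with torkinib and 2533 and 2624 CPM untreated (-1.54 ± 0.08). CTGF, a target of YAP and TGF-beta, fell by 2.20. Collagen and matrix genes fell in 17 of 33 cases and rose in 8, with a median of -0.64, including LOX (-2.79) and TIMP3, which had 486 and 499 CPM with torkinib and 1688 and 1759 CPM untreated (-1.81 ± 0.08). LUM, the lumican gene listed among the fibroblast markers, had 10.8 and 11.1 CPM with torkinib and 40.9 and 41.7 CPM untreated (-1.91 ± 0.14).

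Integrin genes moved in both directions, beside 20.4% of all genes higher and 23.7% lower. Of 25 integrin and adhesion genes 11 fell and 5 rose, with a median of -0.54. ITGA6, a laminin receptor chain, had 320 and 292 CPM with torkinib and 1019 and 1102 CPM untreated (-1.79 ± 0.08), and the collagen receptor chain ITGA2 (-2.01) and ITGA4 (-1.42) fell. ITGA7, another laminin receptor chain, rose to 284 and 291 CPM with torkinib, against 49.9 and 47.5 CPM untreated (2.57 ± 0.08, adjusted p = 4.12e-24). Of 19 genes of TGF-beta and BMP signalling, ligands and receptors among them, 12 fell and 2 rose, with a median of -0.52. The count of rises there depended on single libraries. ID3, a direct target of BMP signals, fell to 12.4 and 11.9 CPM with torkinib, against 70.4 and 57.5 CPM untreated (-2.37 ± 0.14), and SKIL (-1.56) and BAMBI (-0.87) fell.

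Most called genes of antigen presentation fell, beside 23.7% of all genes lower and 20.4% higher. Of 22 tested 13 fell and 5 rose, 3 without the second torkinib or the second untreated library, with a median of -0.38. The class II genes CD74 (-2.20), HLA-DRA (-2.50) and HLA-DMA (-1.72) fell, CD74 to 10.8 and 11.5 CPM with torkinib, against 50.6 and 52.0 CPM untreated. Of 38 interferon-stimulated genes 12 fell and 4 rose, with a median of -0.32; GBP2 (-3.17), GBP1 (-1.57), OAS3 (-0.85) and PARP9 (-0.79) fell. Of 22 cytokine and NF-kappa-B genes 5 rose and 6 fell, near the shares of all genes, with a median of -0.18. TNFAIP3, a feedback inhibitor of NF-kappa-B, rose to 107 and 104 CPM with torkinib, against 28.0 and 25.8 CPM untreated (1.98 ± 0.13), PTGS2 rose by 2.24 and NFKB2 by 0.82, and LIF fell by 1.26.

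Most called proteasome and chaperone genes fell. Proteasome subunits fell in 25 of 35 cases and rose in 0, beside 23.7% and 20.4% of all genes, with a median of -0.44; PSMD1 (-0.99), PSMD11 (-0.76), PSMB2 (-0.76) and PSMD2 (-0.74) led. Of 29 cytosolic chaperones 18 fell and 5 rose, with a median of -0.31, led by HSPA1A (-1.21), DNAJB1 (-0.90), HSPH1 (-0.90) and STIP1 (-0.85). Of 23 genes of the endoplasmic reticulum stress response 16 fell and 4 rose, with a median of -0.38, led by DNAJB11 (-1.14), HYOU1 (-1.09), PDIA4 (-0.94) and HSPA5 (-0.68), the lumen's HSP70. In the lysosome list 18 of 59 genes were higher and 17 lower, beside 20.4% and 23.7% of all genes (median -0.03), and in the autophagy list 11 of 41 were higher and 12 lower (median -0.13), 6 lower without the second untreated library. GAA, the acid glucosidase, rose to 114 and 109.3 CPM with torkinib, against 38.7 and 35.2 CPM untreated (1.61 ± 0.10), CTSL1 by 1.34 and CTSF by 1.30, and PPT1 fell by 1.03. Among autophagy genes ATG2A (1.52), ATG14 (1.01) and WIPI1 (0.79) rose, and BNIP3, a hypoxia-induced mitophagy receptor, fell by 1.36. Of 22 NRF2 and glutathione genes 12 fell and 4 rose, with a median of -0.50; 2 rose without either torkinib library and 1 without the second untreated one. HMOX1 (-2.23), PRDX1 (-1.18), SLC7A11 (-1.10) and NQO1 (-0.65) fell.

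The 2 melanoma lines, given the same dose, differed in 4745 of 16698 genes (28.4%) by the edgeR test of the difference in response. In 2514 (15.1%) the SKMEL28 change was above the A375 change and in 2231 (13.4%) below it, a split that depends on scaling, with 2061 above and 2749 below when no scaling factors were used. Of the 7355 genes called in SKMEL28, 43.5% were called the same way in A375 and 11.2% the opposite way. The same-way share was 52.3% in AU565, 52.8% in 94T778 and 42.6% in SKBR3. The share of all genes called in each of those lines is not given here, so these figures do not rank the lines by likeness to SKMEL28. Of the genes called in SKMEL28, 15.6% were called the same way in all other 4 lines, and 7.21% were called in no other line. Across 10521 genes with at least 10 counts in every group, Pearson's r between the SKMEL28 and A375 changes was 0.51, given as a description, since genes are not independent replicates. Beside it stood 0.60 with 94T778, 0.51 with AU565 and 0.38 with SKBR3.

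**Figure D4:**
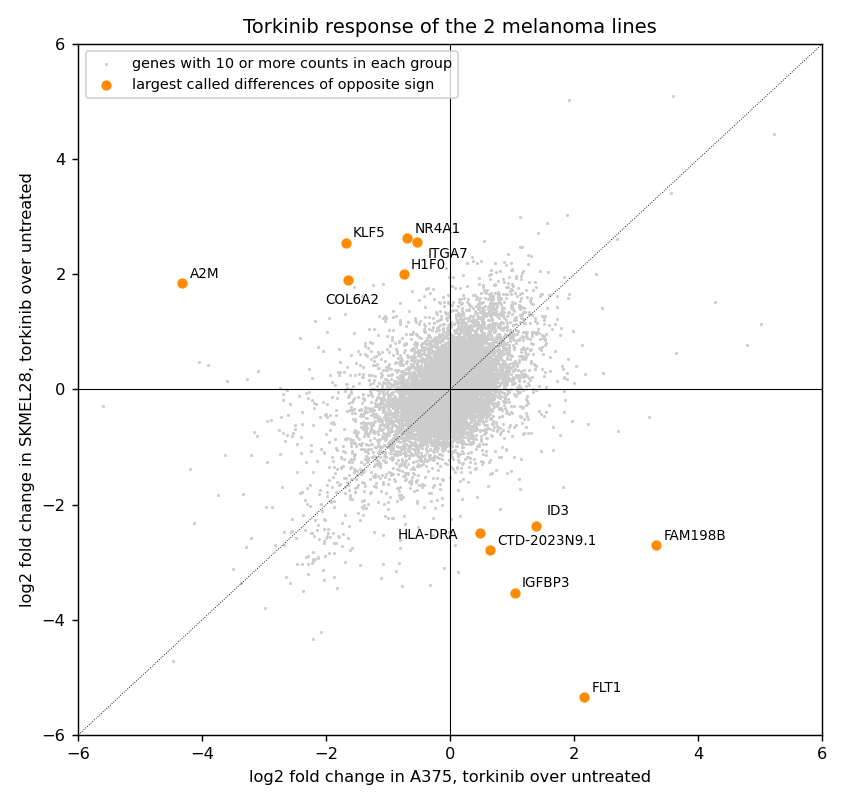
Log2 fold change in SKMEL28 (vertical) against that in A375 (horizontal) for 10521 genes with 10 or more counts in each group; orange points, drawn whatever their counts, are the 12 genes with the largest called differences among those that moved in opposite directions, and the dotted line marks equal change. A2M lies at 1.84 in SKMEL28 and -4.32 in A375, and FAM198B at -2.71 and 3.32, while FLT1 rests on 3 counts in the SKMEL28 torkinib libraries.

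Of the 12 named genes that moved in opposite directions in the 2 melanoma lines, A2M had the largest difference above 0 and FLT1 the largest below. A2M, a secreted protease trap, had 1353 and 1345 CPM in SKMEL28 with torkinib and 377 and 374 CPM untreated, a rise of 1.84 ± 0.09, while in A375 it averaged 5.33 CPM with torkinib and 107 CPM untreated, a change of -4.32. KLF5 (2.55 in SKMEL28, -1.69 in A375), COL6A2 (1.89, -1.65), NR4A1 (2.63, -0.70), ITGA7 (2.57, -0.54) and H1F0, a linker histone of resting cells (2.0, -0.75), were also higher in SKMEL28 and lower in A375. IGFBP3, which binds insulin-like growth factors, had 12.9 and 12.3 CPM in SKMEL28 with torkinib and 146 and 146 CPM untreated (-3.53 ± 0.10), while in A375 it averaged 279 CPM with torkinib and 136 CPM untreated (1.04). FAM198B (-2.71 in SKMEL28, 3.32 in A375), ID3 (-2.37, 1.38), HLA-DRA (-2.50, 0.49) and CTD-2023N9.1 (-2.80, 0.65) shared that direction, and so did FLT1, which in A375 averaged 39.6 CPM with torkinib and 8.75 CPM untreated.

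Several gene groups also differed in response between SKMEL28 and some or all of the other lines. Cytosolic ribosomal protein genes rose further in SKMEL28, with a median change of 1.36 against 0.65 in A375, 0.70 in AU565, 0.01 in 94T778 and 0.52 in SKBR3, and 75 of 76 were above the mean of the other 4 lines by the test, beside 16.0% of all genes. Targets of p53 had a median of -0.59 in SKMEL28 and 0.93 in A375, and 19 of 22 were below A375 by the test, beside 13.4%. Their medians were -0.33 in AU565, -0.04 in 94T778 and -0.27 in SKBR3, so that A375 alone had a median above 0. CDKN1A fell by 1.22 in SKMEL28, whereas in A375 it averaged 302 CPM with torkinib and 137 CPM untreated, a rise of 1.14. Mitosis genes fell further in SKMEL28 than in A375, with medians of -2.70 and -2.14 and 25 of 49 below by the test, beside 13.4%. Against the mean of the other 4 lines 37 of 49 were above, beside 16.0%. Their median in 94T778, -2.71, was close to that in SKMEL28, while it was -4.24 in AU565 and -4.43 in SKBR3. Media differed between the lines, and so did doses for 94T778 and SKBR3, so that line, medium and dose cannot be told apart in these differences.

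**Figure D5:**
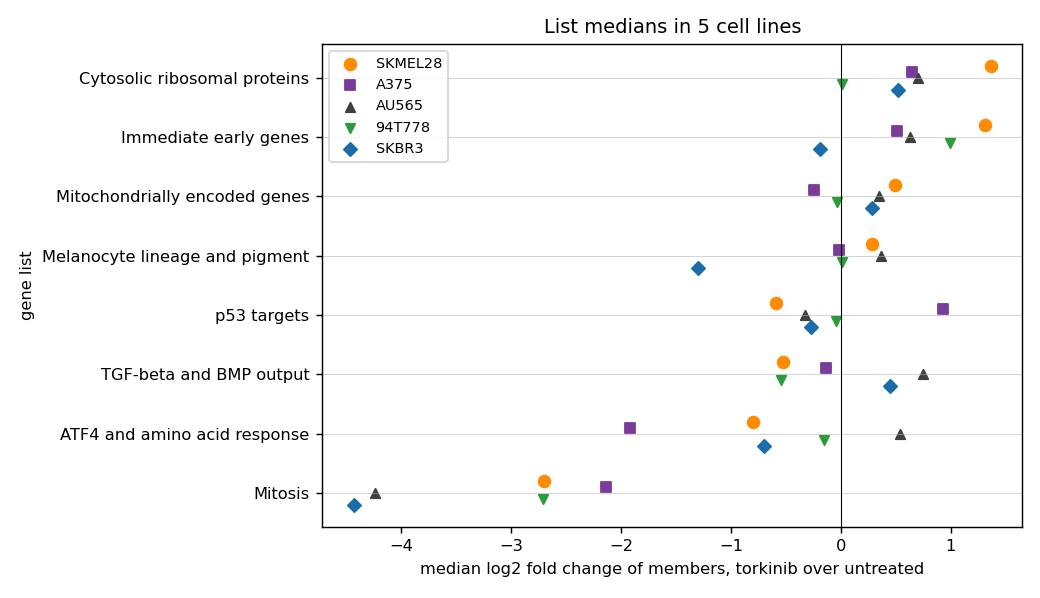
Median log2 fold change (torkinib over untreated) of the members of 8 gene lists in each of the 5 cell lines, 1 symbol per line. SKMEL28 has the highest median for ribosomal protein genes (1.36) and immediate early genes (1.31). For p53 targets A375 alone has a median above 0.

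Single genes set SKMEL28 apart from all 4 other lines by at least 1 log2 unit each, 44 above and 42 below among genes called in SKMEL28 with the difference called, the same sign and enough counts. The immediate early genes FOSB, EGR1, NR4A1 and NR4A3 held the first 4 places above. Rises of such genes were not confined to SKMEL28. FOSB changed by 3.59 in A375, 0.79 in AU565, 2.01 in 94T778 and -0.61 in SKBR3. EGR1 changed by 1.91 in A375, 1.28 in AU565, 3.66 in 94T778 and 0.17 in SKBR3. FOS, at 4.44 in SKMEL28, changed by 5.22 in A375, 0.57 in AU565, 4.33 in 94T778 and -0.48 in SKBR3. NR4A3 changed by 2.39 in SKMEL28, against 0.07 in A375, -2.11 in AU565, 0.46 in 94T778 and -2.09 in SKBR3. HES6, a factor of neural and pigment progenitors, rose to 126 and 129 CPM with torkinib, against 33.0 and 29.5 CPM untreated, while it changed by 0.74 in A375, -2.13 in AU565, -0.72 in 94T778 and -1.57 in SKBR3. CDT1 rose by 0.75 and was lower in each other line, by -0.97 in A375, -2.88 in AU565, -0.99 in 94T778 and -3.47 in SKBR3. KLF5 and TBC1D2 (1.79 in SKMEL28) completed the 8 largest.

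Among the 8 largest differences below the other lines was that of MGLL. MGLL, which releases fatty acids from monoglycerides, had 1.97 and 3.66 CPM with torkinib, against 29.7 and 28.6 CPM untreated (-3.40 ± 0.19), and in the other lines its changes lay between -0.33 and 0.38. UBASH3B, a phosphatase that opposes receptor kinase signals, fell to 10.4 and 9.89 CPM with torkinib, against 82.9 and 81.7 CPM untreated (-3.02 ± 0.12). ITGA2, at -2.01 in SKMEL28, changed by -0.13 in A375, 1.99 in AU565, 0.74 in 94T778 and 3.80 in SKBR3. IGFBP3, ADAM19, DHRS3, an enzyme that acts on retinal (-2.47 in SKMEL28), and FHDC1 (-2.71) were also among the 8 largest.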

How the data were processed

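RNA of human cell lines was sequenced; the molecule is labelled total RNA and the extraction kit Qiagen RNeasy midi. The authors deposited, for each library, a table of raw read counts by gene symbol, with no scaling. The submitters' processing notes list the build hg19 (GRCh37) and the tools limma 3.34.9, HTSeq 0.6.1 and HISAT2 2.04. The sources used here do not say what each did, which gene models served or whether counting used strand. Lines of the tables with no gene name were set aside, which left 47.8 to 61.8% of SKMEL28 reads counted.

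The counts were fitted with edgeR 4.0.16 in R 4.3.3, with TMM factors, filterByExpr (16698 of 31339 counted features tested, 50775 listed) and 10 group means over 20 libraries, which share the estimate of spread (common coefficient of variation 0.0547; 10 residual and 25.6 prior degrees of freedom). Calls used its quasi-likelihood test at a Benjamini-Hochberg adjusted p of 0.05, for SKMEL28, for SKMEL28 minus A375 and for SKMEL28 minus the mean of the other 4 lines. All adjusted p-values come from these fits unless another tool is named. Of the tested genes 14367 had at least 10 counts over the SKMEL28 libraries and 833 had 0. Genes were named as the 15 largest rises and falls at 8 CPM or more, the 4 smallest p of each list, all genes of the MTOR and polymerase lists, the 8 largest differences from the other lines in each direction and the 6 largest of opposite sign to A375; some of the genes this rule names are not reported here. The members and the 61 gene lists were chosen with earlier results of these data known. Older symbols were matched through RefSeq synonyms; MC1R, ITGB3 and NORAD had no match and were not analysed here. The fits were also run on counts simulated from the fitted model, which cannot show whether that model suits these libraries. The outcome of that run is not given here. Alternatives were other scaling, filters and libraries, limma-voom (3.58.1), DESeq2 (1.42.0) and a replicate block. Promoters are RefSeq's on GRCh38.p14, a build other than that of the counts, and were matched by symbol.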

Additional observations from a re-analysis of the deposited data

Results flagged for a closer look

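Each result here stands out because the response of SKMEL28 differed from that of other lines by a test of the difference itself. The lines also differ in medium, and 2 of them in dose. No group holds enough libraries for a test of single outlying libraries.

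Against A375, 4745 genes differed, 2514 above and 2231 below. Against the mean of the other 4 lines, 5098 differed, 2677 above and 2421 below. Relative to A375 the differences in log2 change were 6.17 for A2M, 4.24 for KLF5, 3.54 for COL6A2, 3.32 for NR4A1, 3.10 for ITGA7 and 2.75 for H1F0. On the low side they were -7.51 for FLT1, whose SKMEL28 torkinib libraries held 3 counts, -6.03 for FAM198B, -4.57 for IGFBP3, -3.75 for ID3, -3.44 for CTD-2023N9.1 and -2.98 for HLA-DRA. Relative to the other 4 lines they were 3.66 for FOSB, 3.31 for NR4A3, 3.28 for EGR1, 3.27 for NR4A1, 2.96 for HES6, 2.83 for CDT1, 2.63 for KLF5 and 2.49 for TBC1D2. On the low side of that comparison stood IGFBP3 (-4.70), ITGA2 (-3.61), ADAM19 (-3.57), DHRS3 (-3.57), MGLL (-3.32), FHDC1 (-2.99) and UBASH3B (-2.91). None of these gene differences lost its call under any alternative run.

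By list, beside 15.1% of all genes above and 13.4% below A375, 71 of 76 ribosomal protein genes were above and 0 below. Of 12 mitochondrially encoded genes 10 were above A375 and 0 below, 6 above by DESeq2. Among 22 p53 targets 2 were above and 19 below, among 24 immediate early genes 13 above and 6 below, and among 19 TGF-beta and BMP genes 1 above and 10 below. For 28 genes of ATF4 and the amino acid response the counts were 16 above and 4 below, the count below depending on the first torkinib library. In the 49 mitosis genes they were 1 above and 25 below, with 0 above without the first or second torkinib library or the second untreated one.

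Beside 16.0% of all genes above and 14.5% below the mean of the other 4 lines, 75 ribosomal protein genes were above and 0 below. The mitochondrially encoded genes had 9 above and 0 below, which became 5 above without the second torkinib library and 2 without the first untreated one, and 2 by DESeq2 with all libraries. The p53 targets had 3 above and 11 below, 7 below without the second untreated library. There were 15 immediate early genes above and 4 below, and 5 genes of ATF4 and the amino acid response above and 13 below. For TGF-beta and BMP genes it was 1 above and 13 below, and for mitosis genes 37 above and 0 below.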

How the results depend on the processing

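The counts of genes called in SKMEL28 and in the difference from A375 stayed within 1.5 times of their main values under every alternative run. Leaving out 1 SKMEL28 library in turn gave 2553 to 2912 genes higher and 3056 to 3496 lower in SKMEL28, 2041 to 2231 above and 1692 to 1965 below A375, and 2024 to 2335 above and 1576 to 2095 below the mean of the other 4 lines. The lowest of these, 1576 against 2421 with all libraries, was without the second untreated library. DESeq2 called 2758 higher and 3438 lower, limma-voom 3399 and 4055, and a fit of the 4 SKMEL28 libraries alone 4037 and 4177. With no scaling factors the share above A375 was 42.8% of calls, against 53%. The factors left out were 1.116 and 1.121 untreated and 1.163 and 1.176 with torkinib in A375. In SKMEL28 they were 0.984 and 0.957 untreated and 0.946 and 0.954 with torkinib. Why the factors differ was not tested. Same-numbered deviations in SKMEL28 had a correlation of -0.007 over all genes tested, many of low count. That value alone cannot show whether the replicate numbers pair the libraries. The replicate block gave 3376 higher and 3954 lower. Calls of 18 named genes depended on a setting, and 0 reversed. The fit of the 4 SKMEL28 libraries alone also called more members higher in the lists of G1 regulators (8), DNA replication (4), aminoacyl-tRNA synthetases (4), cholesterol synthesis (2), the invasive profile (2) and the citric acid cycle (2). With 2 libraries a group the spread rests on few libraries, and a gene that missed the threshold is not shown to be unchanged.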

Other observations

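Genes of nuclear traffic and splicing were mostly lower with torkinib in SKMEL28. Of 35 nucleocytoplasmic transport genes 23 fell and 3 rose, beside 23.7% and 20.4% of all genes, with a median log2 change of -0.30. KPNA2, an importin that is also high in dividing cells, had 137 and 129 CPM with torkinib, against 559 and 557 CPM untreated (-2.07 ± 0.08), and the pore genes NUP210 (-1.94), NUP37 (-1.02) and NUP35 (-0.94) fell. Of 40 splicing factors 23 fell and 4 rose, 8 in a fit of the 4 SKMEL28 libraries alone, with a median of -0.29. The core particle genes SNRPA1 (-1.45) and SNRPG (-1.15) fell, while the SR proteins SRSF5 (0.94) and SRSF6 (0.77) rose, SRSF5 to 229 and 226 CPM with torkinib, against 114 and 124 CPM untreated.

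Clock and histone genes were called in both directions, in numbers to be read beside 20.4% of all genes higher and 23.7% lower. Of 19 circadian genes 5 rose and 6 fell, with a median of 0; BHLHE40 (-1.39) and CRY1 (-0.95) fell, and BHLHE41 (0.78) and NPAS2 (0.56) rose. Of 23 histone genes 6 rose and 4 fell, with a median of 0.13. The replacement histones went both ways, H2AFZ at 191 and 188 CPM with torkinib and 543 and 561 CPM untreated (-1.54 ± 0.08), H2AFV down by 1.33 on the log2 scale and H3F3B up by 0.72. H1F0 had 34.9 and 38.5 CPM with torkinib and 7.82 and 10.0 CPM untreated (2.0 ± 0.14). Among markers of the other lines' tissues, 3 of 9 breast luminal genes tested rose and 2 fell, 1 without any of the 4 libraries, with KRT18 at 22.7 and 26.1 CPM with torkinib and 15.3 and 13.1 CPM untreated. Of 6 genes of the 12q region 3 fell, the carboxypeptidase gene CPM (-1.52), HMGA2 (-0.87) and MDM2 (-0.78), and CDK4 was not called (0.16), though it passed in a fit of the 4 SKMEL28 libraries alone (0.18, adjusted p = 0.0043).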
